A study of Mus musculus with 12 samples.

Results

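The IL-1, IL-18 and IL-33 receptor family was described in regulatory T (Treg) cells, a class of CD4 T cells defined by the transcription factor Foxp3 that keeps immune responses in check. Its 8 members were taken by name out of the 55453 genes of the count table: Il1rl1, Il18r1, Il18rap, Il1r1, Il1r2, Il1rl2, Il1rap and Myd88. They were picked with the difference between knockout and floxed mice in view. Their knockout values are therefore given as a description, with no p-value. Where members called by the fit over all genes are counted, the counts follow from that choice. The 12 RNA-seq libraries formed 4 groups of 3: males with the Foxp3 enhancer CNS4 knocked out, males with the floxed and undeleted enhancer, females labelled knockout heterozygotes, and females labelled floxed heterozygotes. All mice were of the C57BL/6 strain, the sexes and ages were matched per the series' design text without an age being given, and CD4+Foxp3+ cells were isolated by flow cytometry and lysed with no treatment. Sample titles carry the letters Thy and the organ is not spelled out. Foxp3 lies on the X chromosome, and whether the sorted female cells used the floxed or the knockout allele was not given in the labels. Separate animals behind the libraries are not stated in the labels, so p-values cover the spread between libraries, which may be technical.

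Receptors of this family carry a TIR domain inside the cell, apart from the decoy receptor. A ligand-binding chain joins an accessory chain, and the pair recruits the adaptor Myd88 and IRAK kinases, which lead to NF-kB and MAP kinases. Il1rl1 encodes ST2, the receptor of the alarmin IL-33, and marks many Treg cells of non-lymphoid tissue. Il18r1 and Il18rap encode the ligand-binding and accessory chains of the IL-18 receptor. Il1r1 encodes the signalling IL-1 receptor, Il1r2 a decoy that binds IL-1 without signalling, Il1rl2 the IL-36 receptor, and Il1rap the accessory chain that the IL-1, IL-33 and IL-36 receptors share.

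Gene counts per library ran between 12423335 and 30244505, and replicate pairs gave a chi-square of 4.65 to 152 per degree of freedom, more than counting error alone. Genes annotated on the plus strand held 95.8 to 97.2% of the reads of protein-coding genes. For genes on the minus strand, few counts therefore do not mean few transcripts. Of the members, 7 lie on the plus strand and Myd88 lies on the minus strand. The knocked-out enhancer has no gene row of its own. Foxp3 had 1790 ± 297 CPM (counts scaled to library size) in male knockouts against 2500 ± 238 CPM in male floxed mice, and 1110 ± 621 CPM in female knockouts against 2630 ± 43.8 CPM in female floxed mice (SD, n = 3 each). With a log2 fold change of -0.86 over both sexes (SE 0.22), it did not pass the threshold (edgeR adjusted p = 0.06). Markers of macrophages and dendritic cells stood apart in some libraries, with summed levels of 1520 CPM in male knockout library 2, 1550 CPM in female knockout library 3 and 1420 CPM in male floxed library 4.

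The promoters printed are those of the members that were higher in every knockout library of both sexes, and of the 3 starts of Il18r1 the one that held a motif. RefSeq gave 12 promoters for the 8 members on GRCm38.p6, each running 250 bases before to 50 bases after a start. The windows printed, all on the plus strand and 5′ to 3′, were chr1:40429320-40429619 and chr1:40439379-40439678 for starts 1 and 2 of Il1rl1, chr1:40465756-40466055 for start 3 of Il18r1, chr1:40515112-40515411 for Il18rap and chr1:40085843-40086142 for Il1r2. Capitals mark matches to the motifs searched.
Il1rl1 start 1: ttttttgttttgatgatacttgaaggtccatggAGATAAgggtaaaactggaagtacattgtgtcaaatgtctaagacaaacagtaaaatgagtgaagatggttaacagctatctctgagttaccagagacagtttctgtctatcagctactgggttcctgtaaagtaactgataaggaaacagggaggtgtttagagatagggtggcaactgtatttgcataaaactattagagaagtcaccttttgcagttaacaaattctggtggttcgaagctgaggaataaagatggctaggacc
Il1rl1 start 2: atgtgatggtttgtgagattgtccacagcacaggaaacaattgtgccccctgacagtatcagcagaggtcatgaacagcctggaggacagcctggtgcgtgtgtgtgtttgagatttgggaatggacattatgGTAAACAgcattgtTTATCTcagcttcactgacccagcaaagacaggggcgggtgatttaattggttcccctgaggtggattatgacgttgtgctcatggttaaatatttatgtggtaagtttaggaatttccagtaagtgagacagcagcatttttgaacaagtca
Il18r1 start 3: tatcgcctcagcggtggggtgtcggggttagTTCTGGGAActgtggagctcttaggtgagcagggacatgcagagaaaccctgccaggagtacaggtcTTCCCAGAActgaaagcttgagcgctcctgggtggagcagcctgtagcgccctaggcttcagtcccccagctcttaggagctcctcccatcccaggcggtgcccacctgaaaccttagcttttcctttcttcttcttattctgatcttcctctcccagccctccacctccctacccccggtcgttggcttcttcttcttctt
Il18rap: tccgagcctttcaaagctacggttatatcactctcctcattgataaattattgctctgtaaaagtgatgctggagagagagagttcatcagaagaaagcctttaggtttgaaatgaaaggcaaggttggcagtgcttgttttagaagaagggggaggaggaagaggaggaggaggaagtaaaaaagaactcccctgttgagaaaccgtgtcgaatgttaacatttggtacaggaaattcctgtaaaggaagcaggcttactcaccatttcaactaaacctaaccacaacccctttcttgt
Il1r2: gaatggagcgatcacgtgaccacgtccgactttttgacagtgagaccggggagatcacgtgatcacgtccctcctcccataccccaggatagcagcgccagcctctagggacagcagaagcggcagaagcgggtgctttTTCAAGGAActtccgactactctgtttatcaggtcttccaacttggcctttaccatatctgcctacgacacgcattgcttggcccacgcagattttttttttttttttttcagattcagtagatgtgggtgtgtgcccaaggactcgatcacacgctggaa

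The motifs were searched on both strands, and none of their matches in the member promoters overlapped. They were TGTTTAC, read by forkhead factors such as Foxp3 and found in 3.65% of 32851 RefSeq promoters of this length, AGATAA, read by GATA factors and found in 11.2%, and TTCNNNGAA, read by STAT factors and found in 8.3%. Il1rl1 held the GATA letters 217 bases before start 1. Before start 2 it held the forkhead letters, as GTAAACA, at 117 bases and the GATA letters, as TTATCT, at 103 bases. Il18r1 held the STAT letters at 219 and 152 bases before start 3, Il1r2 at 111 bases and Myd88 at 46 bases. The windows of Il18rap, Il1r1, Il1rl2 and Il1rap held none of these letters. TGANTCA, read by AP-1 and found in 7.81% of promoters, and the NF-kB motif, found in 1.63%, were in none of the member windows. A match is a description of the letters and not a binding site.

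The receptor genes with the widest gap between the genotypes were those for IL-33 and IL-18, followed by the IL-1 decoy. Il1rl1, Il18r1, Il18rap and Il1r2 were higher in every knockout library than in every floxed library of the same sex. That was 4 of the 7 members tested, against 3.97% of the 12411 genes tested that were higher without overlap in both sexes. Within 1 sex it was 4 members in males, against 8.2% of genes, and 5 in females, against 15.3%. The other 3 tested members overlapped in at least 1 sex. In the comparison over both sexes, edgeR called 3.31% of tested genes at an adjusted p under 0.05, made up of 2.68% higher and 0.637% lower, and 4 members were among those called higher. The members' median log2 fold change was 1.01, against -0.02 over all genes tested. In males no member was called, with 0.0242% of genes called. In females 2 were, Il18r1 and Il18rap, with 0.201% called. The 411 genes called over both sexes became 98 without female floxed library 3 and 2940 without female knockout library 2. The members' counts follow from their choice. In sorted cells measured in bulk, more cells that express a receptor and more RNA per cell cannot be told apart.

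Il1rl1, the IL-33 receptor, had 134, 87.1 and 106 CPM in male knockouts against 34.9, 26.7 and 35.3 CPM in male floxed mice. In female knockouts it had 151, 86.1 and 98.3 CPM against 39.8, 49.7 and 36.4 CPM in female floxed mice. The lowest knockout library of either sex was above the highest floxed library, and its raw counts ran from 344 to 2780. The log2 fold change was 1.75 (SE 0.25) in males and 1.41 (SE 0.25) in females, or 3.37-fold and 2.66-fold. Floxed females and floxed males, a comparison that did not enter the choice of members, had 42 ± 6.89 and 32.3 ± 4.85 CPM (SD, n = 3 each), a log2 difference of 0.38 with a 95% interval of -0.16 to 0.91 (edgeR adjusted p = 0.676). The difference did not pass the threshold. The lowest floxed female library, at 36.4 CPM, lay just above the highest floxed male library, at 35.3 CPM. The share of all genes that separate in this way between these groups was not computed.

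The 2 chains of the IL-18 receptor had like gaps. Il18r1, the ligand-binding chain, had 191, 131 and 153 CPM in male knockouts against 61.8, 57.6 and 80.8 CPM in male floxed mice. It had 203, 146 and 150 CPM in female knockouts against 66.1, 72.4 and 72 CPM in female floxed mice. No knockout library came within the floxed range, and the log2 fold change was 1.25 (SE 0.19) in each sex. Il18rap, the accessory chain, had 58.4, 44.7 and 44.9 CPM in male knockouts against 14.4, 18.5 and 23.5 CPM in male floxed mice. In female knockouts it had 63.9, 43.2 and 39.5 CPM against 15.6, 18.4 and 13.2 CPM in female floxed mice. The groups again did not overlap in either sex. Il18rap had a log2 fold change of 1.39 (SE 0.25) in males and 1.64 (SE 0.25) in females.

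The decoy receptor Il1r2 had 292, 261 and 273 CPM in male knockouts against 126, 132 and 186 CPM in male floxed mice. In female knockouts it had 406, 262 and 228 CPM against 119, 148 and 145 CPM in female floxed mice. The genotypes did not overlap, and its log2 fold change was 0.90 (SE 0.22) in males and 1.12 (SE 0.22) in females. Neutrophils also carry this decoy. The 8 neutrophil markers summed to 8.87, 186 and 10.3 CPM in male knockouts against 3.79, 2.79 and 109 CPM in male floxed mice. In female knockouts they summed to 14.2, 17.1 and 65.9 CPM against 21.3, 8.61 and 7.96 CPM in female floxed mice. The 1 marker at 0 in every library, Cxcr1, lies on the minus strand. Male knockout library 2 and male floxed library 4 had the highest sums of their groups. Without these libraries the log2 fold change of Il1r2 over both sexes was 1.14 (SE 0.17), against 1.01 (SE 0.16) with them. Female knockout library 3, at 65.9 CPM, was kept in both fits, and the part of neutrophils in the Il1r2 values was not tested.

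The signalling IL-1 receptor gene Il1r1 was low and did not separate the genotypes. It had 10.8, 17.7 and 11.9 CPM in male knockouts against 6.69, 3.57 and 13.2 CPM in male floxed mice, and 11.6, 8.15 and 10.6 CPM in female knockouts against 3.58, 10.4 and 3.67 CPM in female floxed mice. One floxed library of each sex reached into the knockout range, library 4 in males and library 2 in females. The log2 fold change was 0.78 (SE 0.51) in each sex. Leaving out 1 library moved it to between 0.44 (male floxed 2) and 1.39 (male floxed 4) in males, and to between 0.54 (female floxed 1 or 3) and 1.46 (female floxed 2) in females. Il1rl2, the IL-36 receptor gene, had 12.1, 12.4 and 8.13 CPM in male knockouts against 6.76, 8.46 and 13 CPM in male floxed mice, and 14.9, 12.2 and 17.6 CPM in female knockouts against 14.1, 7.32 and 7.84 CPM in female floxed mice. Its genotypes overlapped in both sexes, with log2 fold changes of 0.21 (SE 0.33) in males and 0.61 (SE 0.33) in females. With 1 library left out these lay between 0.02 (male floxed 1) and 0.52 (male floxed 4) in males, and between 0.42 (female floxed 2) and 0.99 (female floxed 1) in females.

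Il1rap, the shared accessory chain and the only receptor member outside the cluster, overlapped between the genotypes in males and not in females. It had 76.4, 69.1 and 58.3 CPM in male knockouts against 75.3, 70.6 and 55.1 CPM in male floxed mice, so that the male ranges nearly coincided. Female knockouts had 108, 85.1 and 112 CPM against 79, 70.7 and 71.1 CPM in female floxed mice, with no overlap. The log2 fold change was 0.02 (SE 0.17) in males and 0.47 (SE 0.17) in females, and the difference between the sexes was not tested because the members were chosen on both contrasts. Il1rap lies on chromosome 16. Myd88, the adaptor, had 1, 2 and 7 counts in male knockouts against 1, 1 and 1 in male floxed mice, and 1, 3 and 1 counts in female knockouts against 1, 0 and 3 in female floxed mice. Nearly all of these were at or under 3 counts, the limit that a count of 0 allows, so no fold change is given. Myd88 lies on the minus strand of chromosome 9, and 290 bases of its exons overlap exons of the plus-strand gene Acaa1a.

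**Figure D1:**
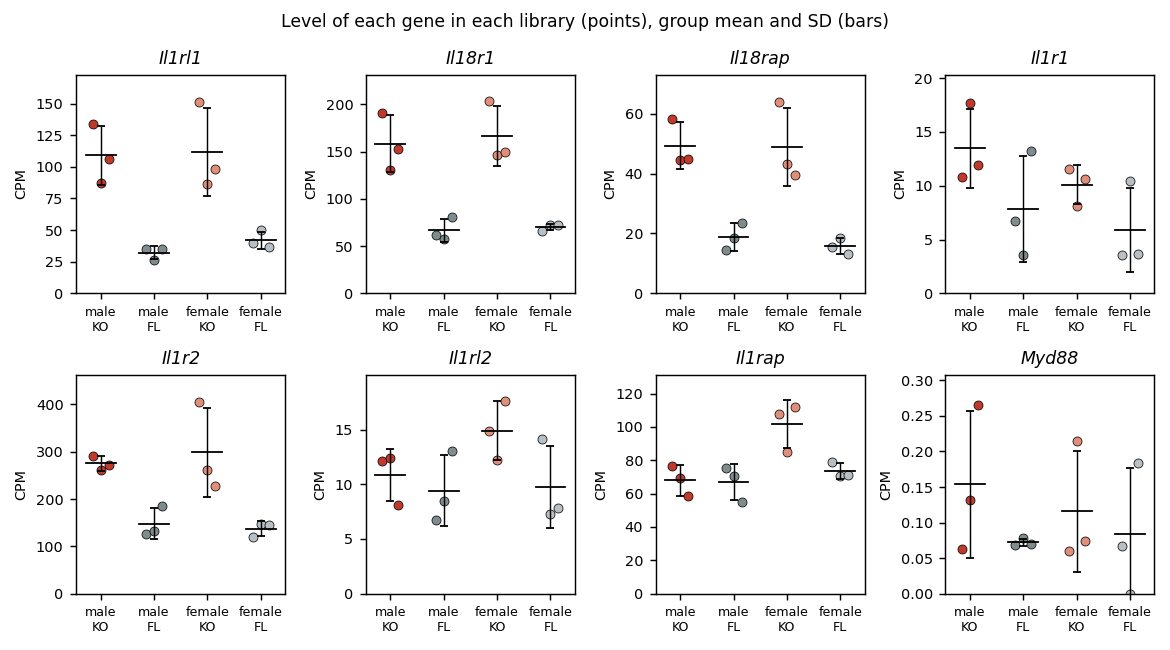
CPM of the 8 members in each library, 1 panel a gene, with knockout left of floxed in each sex, points for libraries and bars for the mean and SD (n = 3). Il1rl1, Il18r1, Il18rap and Il1r2 lie apart by genotype in both sexes, Il1rap in females, and Il1r1 and Il1rl2 overlap.

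**Figure D2:**
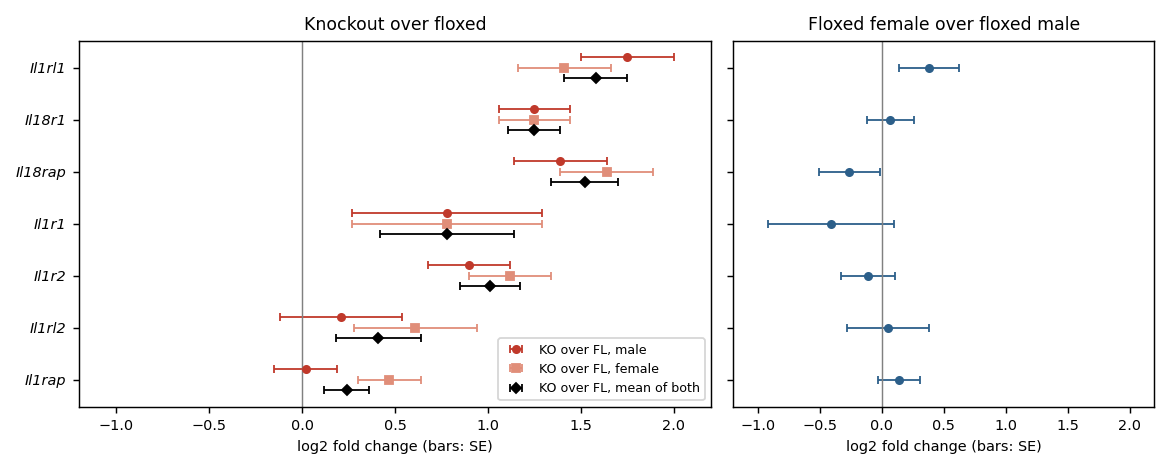
Log2 fold changes of the 7 tested members with bars for the standard error, on the left knockout over floxed in males, in females and as the mean of both, and on the right floxed females over floxed males. The knockout values of Il1rl1, Il18r1, Il18rap and Il1r2 lie between 0.90 and 1.75, and the values for floxed females over floxed males lie between -0.41 and 0.38.

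Between floxed females and floxed males none of the 7 tested members passed, with 0.0322% of genes called in that comparison. The members' median log2 difference was 0.05, against 0 over all genes. Besides Il1rl1, the difference (floxed females over floxed males) was 0.07 (SE 0.19) for Il18r1, -0.26 (SE 0.25) for Il18rap, -0.11 (SE 0.22) for Il1r2, -0.41 (SE 0.51) for Il1r1, 0.05 (SE 0.33) for Il1rl2 and 0.14 (SE 0.17) for Il1rap, with edgeR adjusted p-values between 0.78 and 0.978. At an unadjusted p under 0.05 the same comparison held 762 genes or 6.14% of those tested, and none was a member. A p above the threshold does not show that the sexes have like levels: the 95% interval of Il1r1, the widest, began at -1.55.

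Levels were compared between genes as CPM per kilobase of annotated exon. Il1r2 was highest in every group, at 144 CPM per kilobase in male knockouts, 77.5 in male floxed mice, 157 in female knockouts and 72 in female floxed mice. Il18r1 came next in every group, at 32.9, 13.9, 34.6 and 14.6 CPM per kilobase in the same groups, with ranges that did not reach those of Il1r2. The place after these differed. It was held by Il1rl1 in knockouts, at 15.8 CPM per kilobase in males and 16.2 in females, with no overlap with the gene after it. In floxed mice it was held by Il1rap, at 5.9 CPM per kilobase in males and 6.48 in females, where its range overlapped that of Il1rl1 at 4.68 and 6.09. Il18rap and Il1rap overlapped in the knockouts of both sexes. Il1r1 and Il1rl2 followed in every group, and their ranges overlapped in each. Exon lengths came from a later annotation than the one counted, and the order rests on them.

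**Figure D3:**
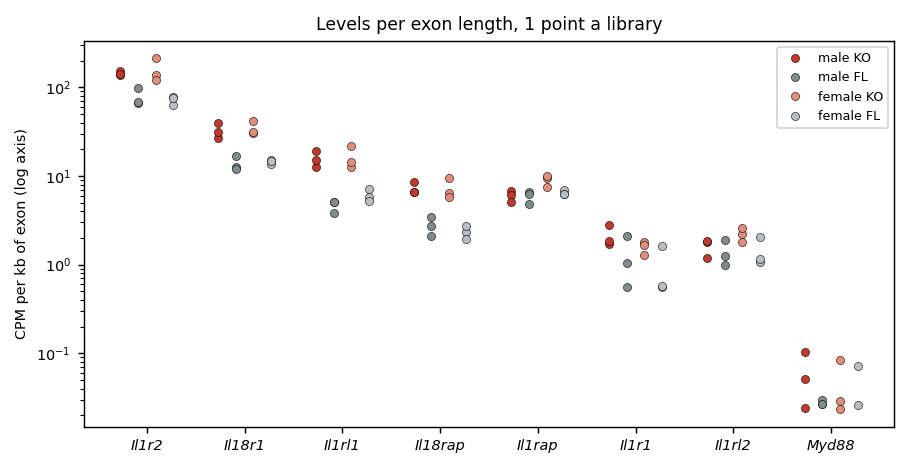
CPM per kilobase of exon of each member on a log axis, 1 point a library, with knockout left of floxed in each sex. Il1r2 is highest in every group and Il18r1 next, and the knockout points of Il1rl1 lie above those of Il1rap while the floxed points of these genes overlap. The library with 0 counts of Myd88 is not drawn.

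Ratios between the members' RNA levels are a description, since a gap between the genotypes in a ratio can follow from the choice of the members. The share of such gaps over other gene pairs was not computed. The ratio of Il1rl1 to Il1rap per kilobase was 2.65 ± 0.498 in male knockouts against 0.814 ± 0.219 in male floxed mice, and 1.8 ± 0.446 in female knockouts against 0.944 ± 0.186 in female floxed mice (SD, n = 3 each). The ranges did not overlap in either sex, with 2.08 to 2.99 against 0.623 to 1.05 in males and 1.44 to 2.3 against 0.83 to 1.16 in females. The chains of the IL-18 receptor kept a closer ratio: Il18rap over Il18r1 was 0.223 ± 0.0173 in male knockouts against 0.201 ± 0.0322 in male floxed mice, and the ranges overlapped. In females it was 0.208 ± 0.0181 in knockouts against 0.16 ± 0.0265 in floxed mice, with ranges of 0.188 to 0.224 against 0.13 to 0.182 that did not overlap. The decoy stood 71.8 ± 20.8-fold over Il1r1 in male knockouts against 77.6 ± 40.3-fold in male floxed mice, and 98.6 ± 23.8-fold in female knockouts against 96.7 ± 43.9-fold in female floxed mice. The ranges of that ratio overlapped in both sexes.

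The 6 receptor genes of chromosome 1 follow each other on the plus strand in the order Il1r2, Il1r1, Il1rl2, Il1rl1, Il18r1 and Il18rap. Their summed level was 698, 554 and 596 CPM in male knockouts against 250, 247 and 352 CPM in male floxed mice, and 850, 558 and 544 CPM in female knockouts against 258, 306 and 278 CPM in female floxed mice. Il1r2 made up 41.8 to 53.5% of that sum in every library. The log2 fold changes over both sexes along the cluster were 1.01 (SE 0.16) for Il1r2, 0.78 (SE 0.36) for Il1r1, 0.41 (SE 0.23) for Il1rl2, 1.58 (SE 0.17) for Il1rl1, 1.25 (SE 0.14) for Il18r1 and 1.52 (SE 0.18) for Il18rap. The 3 genes at the far end of the cluster had the highest values. Il1r1 was not set apart from Il1r2: their order turned with the replicate block, at 1.22 for Il1r1 and 1.09 for Il1r2, with limma-voom, at 1.02 and 0.91, and without female floxed library 2, at 1.12 and 1.03. Library 1 was the highest knockout library of its sex for Il1rl1, Il18r1, Il18rap and Il1r2, in males as in females.

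Of the 8 listed neighbours of the cluster, 1 had enough reads to be tested. Among the others, Rnf149, Creg2, Rfx8 and Mfsd9 lie on the minus strand, where few counts do not mean few transcripts. Map4k4, a kinase gene on the plus strand next to Il1r2, had 83.1 ± 10.8 CPM in male knockouts against 86.9 ± 3.48 CPM in male floxed mice, and 89 ± 0.741 CPM in female knockouts against 97.9 ± 1.11 CPM in female floxed mice (log2 fold change -0.10, SE 0.08, edgeR adjusted p = 0.503). Beyond Il18rap, the sodium-proton exchanger genes Slc9a4 and Slc9a2 had 0 to 7 and 1 to 8 counts per library, and both lie on the plus strand. Gm37347, a transcript without a known role that lies on the plus strand within an intron of Il1r2, was looked at after its values were seen. It had 2.42 ± 0.254 CPM in male knockouts against 1.42 ± 0.204 CPM in male floxed mice, and 3.69 ± 0.43 CPM in female knockouts against 1.88 ± 0.204 CPM in female floxed mice. Its log2 fold change was 0.87 (SE 0.15, edgeR adjusted p = 0.0148), 5 of its 21 alternatives lost the call with an adjusted p of up to 0.103, and whether its counts are unspliced Il1r2 RNA was not tested. The other unlisted transcript with enough reads, the plus-strand antisense gene Gm37915 beyond Slc9a2, had 83 to 201 counts and did not pass (log2 fold change 0.14, SE 0.20, edgeR adjusted p = 0.708).

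**Figure D4:**
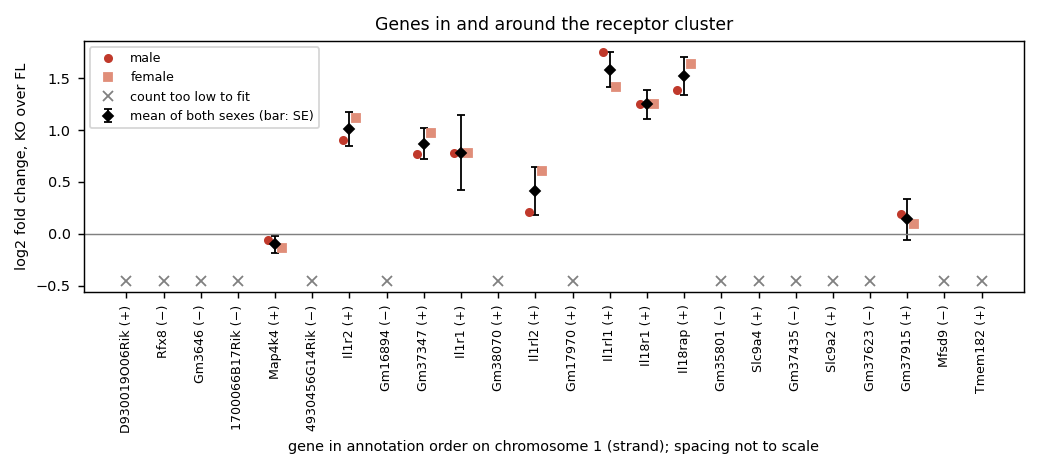
Log2 fold changes (knockout over floxed) in males, in females and as the mean of both with its standard error, for the annotated genes in and around the receptor cluster in their order along chromosome 1 and with crosses for genes whose counts were too low to fit. Il1rl1, Il18r1 and Il18rap lie between 1.25 and 1.75, Il1r1 and Il1rl2 between 0.21 and 0.78, and Map4k4 lies at -0.06 in males and -0.14 in females.

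Over all 12 libraries, with the genotype split included, Il18r1, Il18rap and Il1r2 had the highest r with Il1rl1 among the tested members. Among 7046 genes compared by Pearson r of log2 CPM with Il1rl1, Il18r1 was the most alike at 0.979, Il18rap had 0.936 and Il1r2 0.926, while Il1r1 had 0.653, Il1rl2 0.497 and Il1rap 0.46. The non-member genes most like Il1rl1 were Icos (0.974), a costimulatory receptor gene, Tmem154 (0.971), Myo3b (0.963), an unconventional myosin gene, Slamf6 (0.962), a SLAM family receptor gene, Tnfsf10 (0.958), which encodes the death ligand TRAIL, and Cldnd1 (0.958). Those most like Il18r1 were Myo3b (0.983), Cldnd1 (0.973), Icos (0.973), Tmem154 (0.972), Zcchc18 (0.971) and the chemokine receptor gene Cxcr6 (0.968). The libraries share their genotype split, so any gene with a large knockout difference gains a high r. These values are a description over 12 libraries. As deviations from the group means, which take out that split, r with Il1rl1 was 0.84 for Il18r1, 0.7 for Il18rap and 0.67 for Il1r2. It was 0.43 for Il1r1, 0.03 for Il1rl2 and 0.23 for Il1rap.

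Of the ligand genes, Il18 and the antagonist Il1rn had enough counts to be tested. Il33, the ligand of ST2, had 0 to 33 counts per library on the plus strand and did not pass the filter on low counts. Il18 had 6.86 ± 1.26 CPM in male knockouts against 3.73 ± 2.5 CPM in male floxed mice, and 20 ± 4.75 CPM in female knockouts against 13.3 ± 7.83 CPM in female floxed mice (log2 fold change 0.73, SE 0.36, edgeR adjusted p = 0.275). Il1rn, the IL-1 receptor antagonist gene, had 20.9 ± 7.83 CPM in male knockouts against 12.1 ± 7.93 CPM in male floxed mice, and 27.5 ± 8.64 CPM in female knockouts against 15.6 ± 8.27 CPM in female floxed mice (log2 fold change 0.81, SE 0.38, edgeR adjusted p = 0.263). Neither passed the threshold. The IL-36 ligand genes, under their older names, had 0 to 8 counts for Il1f6, 0 to 1 for Il1f8 and 0 to 62 for Il1f9, and the IL-36 antagonist gene Il1f5 had 0 to 11. On the minus strand, Il1a had 0 to 2 counts and the IL-18 binding protein gene Il18bp 0 to 3.

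Of the 47 pathway genes, 26 were tested, with 1 called higher, 1 called lower and a median log2 fold change of -0.03. Beside these, 2.68% of all genes tested were called higher and 0.637% lower, with a median of -0.02. Irak2, a kinase downstream of Myd88, fell to 225 ± 16.7 CPM in male knockouts, against 286 ± 24.5 CPM in male floxed mice, and to 216 ± 30.9 CPM in female knockouts, against 312 ± 1.29 CPM in female floxed mice (log2 fold change -0.44, SE 0.09, edgeR adjusted p = 0.022). Ube2n, the ubiquitin-conjugating enzyme that works with Traf6, rose to 90 ± 7.53 CPM in male knockouts, against 70.5 ± 4.79 CPM in male floxed mice, and to 99.2 ± 14.1 CPM in female knockouts, against 68.6 ± 0.464 CPM in female floxed mice (log2 fold change 0.44, SE 0.09, edgeR adjusted p = 0.0325). Of 22 alternatives, 12 lost the call of Irak2, whose adjusted p ran from 0.000231 to 0.115, and 13 that of Ube2n, whose adjusted p ran from 0.000266 to 0.245. No member of the list was called in males or in females alone.

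Other signalling genes of the list had values that did not pass. The kinase Irak4 had 107 ± 2.21 CPM in male knockouts against 88.6 ± 14 CPM in male floxed mice, and 90.9 ± 9.98 CPM in female knockouts against 83.8 ± 3.04 CPM in female floxed mice (log2 fold change 0.19, SE 0.10, edgeR adjusted p = 0.285). The ubiquitin ligase Traf6 had 250 ± 85.9 CPM in male knockouts against 334 ± 68.7 CPM in male floxed mice, and 113 ± 65.3 CPM in female knockouts against 240 ± 71.4 CPM in female floxed mice (log2 fold change -0.75, SE 0.28, edgeR adjusted p = 0.174). Both are on the plus strand, and the spread of Traf6 between libraries was the wider. The log2 fold change was -0.07 for the NF-kB subunit Rela (SE 0.07, edgeR adjusted p = 0.611) and -0.87 for the minus-strand subunit gene Rel, with 14 to 64 counts (SE 0.22, edgeR adjusted p = 0.0648). Sigirr, an inhibitory receptor of the family on the minus strand, had 1 to 9 counts.

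Genes of ST2-positive tissue Treg cells and inducers of the receptors made up a list of 22, some of which earlier results of these data had shown to be higher. Of the 16 tested, 7 were called higher and none lower, with a median log2 fold change of 0.56, beside 2.68% called higher, 0.637% called lower and a median of -0.02 over all genes tested. The 6 with the smallest p were Cxcr6, Icos, Itgae, Il10, Ccr2 and Irf4. Itgae, the integrin chain that binds E-cadherin, rose to 1220 ± 191 CPM in male knockouts, against 567 ± 113 CPM in male floxed mice, and to 1090 ± 345 CPM in female knockouts, against 540 ± 0.644 CPM in female floxed mice (log2 fold change 1.06, SE 0.15, edgeR adjusted p = 0.0078). Irf4, a transcription factor of effector Treg cells, rose to 312 ± 12.4 CPM in male knockouts, against 210 ± 41.5 CPM in male floxed mice, and to 324 ± 21 CPM in female knockouts, against 219 ± 7.86 CPM in female floxed mice (log2 fold change 0.57, SE 0.10, edgeR adjusted p = 0.013). Il10, an anti-inflammatory cytokine, rose to 12.5 ± 1.51 CPM in male knockouts, against 4.63 ± 0.65 CPM in male floxed mice, and to 19.1 ± 6.4 CPM in female knockouts, against 7 ± 2.4 CPM in female floxed mice (log2 fold change 1.44, SE 0.21, edgeR adjusted p = 0.00808). Without female knockout libraries 1 and 3, the log2 fold change was 0.57 for Irf4, 1.16 for Il10 and 1.1 for Ccr2, against 1.43 for Ccr2 with all libraries. That fit kept 1 female knockout library, so its calls are not given. Irf4 was not called by edgeR without female floxed library 2 (adjusted p = 0.0574) or 3 (adjusted p = 0.0575). Gata3, a factor known to drive Il1rl1, lies on the minus strand and had 10 to 105 counts (log2 fold change -1.04, SE 0.34, edgeR adjusted p = 0.121). Bcl2l11 (log2 fold change -0.55, SE 0.13, edgeR adjusted p = 0.0537) and Areg (-0.12, SE 0.58, edgeR adjusted p = 0.917) also had negative values. The list members not tested, Klrg1, Nfil3, Prdm1, Tigit, Tbx21 and Maf, all lie on the minus strand, where few counts do not mean few transcripts.

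**Figure D5:**
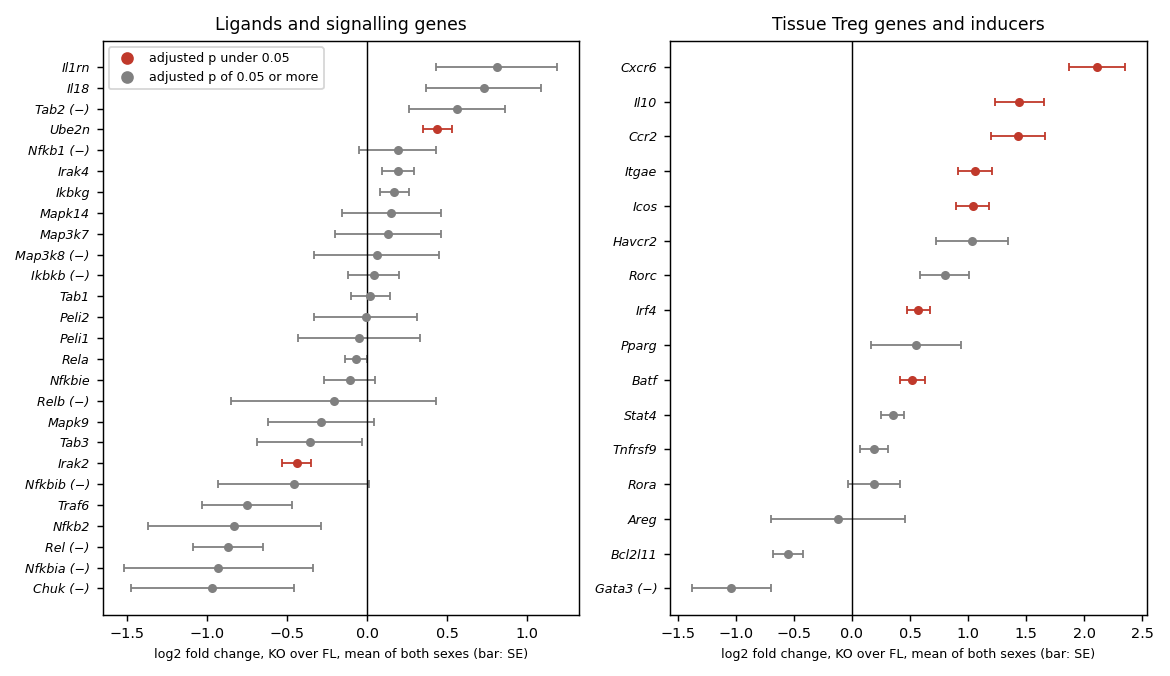
Log2 fold changes over both sexes (knockout over floxed) with bars for the standard error, on the left for the 26 tested pathway genes and on the right for the 16 tested genes of tissue Treg cells and inducers, in red where a gene passed the threshold. Irak2 at -0.44 and Ube2n at 0.44 passed on the left, and 7 genes, all higher, on the right.

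Markers of other cells that carry these receptors were counted as well. The 8 markers of group 2 innate lymphoid cells, which express Il1rl1, summed to 0.38 to 0.926 CPM in male knockouts against 0.31 to 0.417 CPM in male floxed mice, and to 0.181 to 0.59 CPM in female knockouts against 0.27 to 0.453 CPM in female floxed mice. Of these markers, 7 lie on the minus strand, and 3 were at 0 in every library. The 12 markers of mast cells and basophils summed to 198 to 263 CPM in male knockouts against 294 to 310 CPM in male floxed mice, and to 274 to 303 CPM in female knockouts against 288 to 356 CPM in female floxed mice. That sum was almost all Kit, which early T cell progenitors also express, while 10 of the 12 had no more than 10 counts in any library and the 6 at 0 throughout all lie on the minus strand. Markers of natural killer cells and group 1 innate lymphoid cells, which express both IL-18 receptor chains, summed to 17 to 20 CPM in male knockouts against 20.4 to 26 CPM in male floxed mice, and to 19.2 to 21.5 CPM in female knockouts against 18.2 to 22.2 CPM in female floxed mice. Most of that sum was the plus-strand gene Prf1. Of these 10 markers, 6 lie on the minus strand, among them the 3 at 0 in every library.

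Markers of gamma-delta and natural killer T cells, which carry Il18r1 and Il1r1, summed to 30.2 to 114 CPM in male knockouts against 42.1 to 66.5 CPM in male floxed mice, and to 47.3 to 102 CPM in female knockouts against 46.5 to 59.4 CPM in female floxed mice. Stromal and epithelial markers, a further source of Il1r1, summed to 82 to 205 CPM in male knockouts against 86.9 to 136 CPM in male floxed mice, and to 79.2 to 265 CPM in female knockouts against 77.5 to 101 CPM in female floxed mice. The 18 myeloid markers summed to 226 to 1520 CPM in male knockouts against 96.4 to 1420 CPM in male floxed mice, and to 806 to 1550 CPM in female knockouts against 260 to 1090 CPM in female floxed mice. The ranges of these 3 lists overlapped between the genotypes in each sex. The 5 B cell markers summed to 15.1 to 59.1 CPM in male knockouts against 15.9 to 37.9 CPM in male floxed mice, and to 25 to 40.8 CPM in female knockouts against 15.5 to 22.2 CPM in female floxed mice, without overlap in females. The median log2 fold change over both sexes of the tested markers was 1.79 for neutrophils, 0.77 for myeloid cells, 0.76 for stroma and epithelium and 0.71 for gamma-delta and natural killer T cells, and it was 0.54 for the B cell marker tested, against -0.02 over all genes. None of the markers in these lists passed the threshold. Markers of Treg and T cells summed to 6900 to 9100 CPM in male knockouts against 7550 to 8290 CPM in male floxed mice, and to 7520 to 9380 CPM in female knockouts against 8560 to 8730 CPM in female floxed mice. Within this sum the log2 fold changes over both sexes differed in sign, with -0.86 for Foxp3 and 0.50 for Ctla4. Of the 10 markers, 1 was called higher, Ctla4 (SE 0.12, edgeR adjusted p = 0.0457), beside 2.68% of all genes tested. Of 22 alternatives, 15 lost that call. The part of other cells in the receptor values was not tested.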

How the data were processed

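The authors deposited raw counts of reads per gene symbol for 12 RNA-seq libraries, made from total RNA of sorted Treg cells with SMARTer Stranded kits, per the labels' protocols. The submitters' processing notes name CASAVA, STAR 2.5.2b, STAR 2.3.0e, HTSeq 0.6.1p1 and build mm9; annotation and strand setting are not given in the sources used here. The 5 HTSeq summary rows were left out: genes held 29.5 to 35.7% of a library's reads, 44.3 to 46.9% fell in no feature, 14.1 to 17.3% had several positions, 0.584 to 0.678% were ambiguous and 4.73 to 8.01% did not align.

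Strand, order and exon length came from GENCODE M21 by symbol, which matched 54510 of 55453 genes. Promoter sequences came from RefSeq on GRCm38.p6, another build than that of the counts. IL-36 genes were found under older symbols.

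edgeR 4.0.16 in R 4.3.3 fitted 1 mean per group to all 12 libraries (filterByExpr, which left 12411 of 29806 genes with reads, TMM, robust quasi-likelihood), with Benjamini-Hochberg adjustment over all genes tested at 0.05. The code was tested on simulated counts. CPM are counts over the TMM-adjusted library size; log2 CPM used a prior count of 2. The 95% intervals use edgeR's total degrees of freedom, residual plus prior.

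Named were the members, up to 6 called genes of each list by smallest p, the ligands with a count, and the 6 genes most like Il1rl1 and Il18r1 with a mean log2 CPM of at least 1. Members, lists and tests were chosen with earlier results of these data known. Alternatives were RLE factors, DESeq2 1.42.0, limma 3.58.1 voom with quality weights, no filter, at least 5 CPM in 3 libraries, a replicate block, only the libraries compared, plus-strand genes, a GC and length trend removed, and libraries left out. Figures used matplotlib 3.10.9 in Python 3.11.15.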

Additional observations from a re-analysis of the deposited data

How the results depend on the processing

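The members' log2 fold changes over both sexes kept their sign under all 22 alternatives, from 1.39 to 1.70 for Il1rl1, 1.15 to 1.40 for Il18r1, 1.38 to 1.66 for Il18rap, 0.61 to 1.22 for Il1r1, 0.86 to 1.14 for Il1r2, 0.26 to 0.75 for Il1rl2 and 0.12 to 0.32 for Il1rap, while that of Il1rap in males ran from -0.11 to 0.13. The count of genes called over both sexes, 411 (332 higher, 79 lower), was 1036 with DESeq2, 4630 with limma-voom (1834 higher, 2796 lower), 1218 with the replicate block (499 higher, 719 lower), 44 without female knockout libraries 1 and 3, and 98 (female floxed 3) to 2940 (female knockout 2) with 1 library left out, the other libraries but male floxed 4 also moving it by over 1.5 times. The count for males, 3, was 203 with DESeq2, 177 with limma-voom, 26 with no filter, 11 without female knockout libraries 1 and 3, 0 to 35 (male floxed 4) with 1 library left out, and 0 with the replicate block, only the libraries compared, plus-strand genes, the GC and length trend removed, or without male knockout library 2 and male floxed library 4. The count for females, 25, was 636 with DESeq2, 5437 with limma-voom, 94 with no filter, 50 with at least 5 CPM, 63 without male knockout library 2 and male floxed library 4, 0 to 3089 (female knockout 2) with 1 library left out, and 0 with the replicate block, only the libraries compared, or without female knockout libraries 1 and 3. The count for floxed females against floxed males, 4, was 51 with DESeq2, 9 with limma-voom, 12 with no filter, 7 with the trend removed and 3 to 20 with 1 library left out. The pathway count, 2, was 14 with limma-voom, 4 with the replicate block, 1 with no filter, 0 with the trend removed or without either pair of libraries, and 0 to 8 with 1 library left out. The differences of floxed females over floxed males that changed sign were Il1r2 at 0.04 with limma-voom, 0.01 with the trend removed, 0.09 without male floxed library 4 and 0.11 also without male knockout library 2 (range with 1 library left out -0.21 to 0.09); Il1r1 at 0.19 and 0.20 in those last cases (-1.09 to 0.19); Il18r1 at -0.02 without male floxed library 2 (-0.02 to 0.23); and Il1rl2 at -0.14, -0.02 and -0.33 without male floxed library 1, male floxed library 2 and female floxed library 1 (-0.33 to 0.36). The cause was not tested. Whether replicate numbers pair the samples could not be told. Deviations from the group means correlated at 0.442 and -0.614 in males and at 0.189, 0.279 and -0.225 in females, with both signs in each sex. The replicate block could not be fitted to floxed females against floxed males.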
